A study of Homo sapiens with 6 samples.

Results

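Genes of the NF-κB pathway and of its inflammatory cytokines were compared between PC3 cells that overexpress GCNT1 and their lentiviral controls. The genes formed a list of 54 named by symbol and role, drawn up with earlier results of these data known, and 45 of them had a row among the 12703 genes counted. The other 9 listed genes (TRAF1, CXCL5, CCL2, CCL20, IL1A, IL6, IL11, TNFRSF1B and PTGS2) were not analysed here. PC3 cells are a long-established human line grown from a prostate cancer that had spread to bone. RNA came from 3 PC3 lines stably transduced with Lenti-ORF particles that carry GCNT1 and from 3 PC3 lines given Lenti-ORF control particles, labelled as biological replicates 1 to 3 of each group. All 6 lines therefore carry a lentiviral insert, no dose or time series was run, and the sources used here do not say whether a line was grown from a single clone or from a pool. GCNT1 adds the core 2 branch to O-glycans, and the comparison was of transcript levels with and without added GCNT1.

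GCNT1 had 9, 13 and 8 reads in the controls against 13, 16 and 35 in the overexpressing lines. Every overexpressing line was above every control after scaling. However, GCNT1 reached the lowest level kept in the deposited counts, given below, in every overexpressing line but not in every control. It thus entered through the group where it was higher, so its call and this order are no independent check of the overexpression. Its log2 fold change of 0.98 (SE 0.37, adjusted p = 0.0362) fell to 0.49 without overexpressing line 3, and the adjusted p was also above the threshold without control 1 or control 3 and under DESeq2 (0.0821). Library totals ran from 11392213 to 13825704 counts. The PC3-expressed genes KRT8, KRT18, EPCAM and CD44 were all present, at a summed 961 to 996 normalised counts (CPM, scaled to the library size) in controls and 898 to 950 in the overexpressing lines. Of 8 leukocyte markers only CD68 had a row, at 83.4 to 94.4 CPM in controls and 80.0 to 89.5 in the overexpressing lines. Of 4 endothelial markers PECAM1 and KDR had rows, with sums of 148 to 166 CPM in controls and 47.7 to 63.4 CPM in the overexpressing lines. The sum followed KDR (log2 fold change -1.53), while PECAM1 rose (1.31). Of 5 fibroblast markers COL1A1 and COL3A1 had rows, with sums of 126 to 178 and 43.0 to 46.7 CPM. Both sums moved with the groups, while VWF, CDH5, PDGFRB, LUM and DCN had no row, and their part in the results below was not tested. In bulk RNA a change in the share of cells that express a gene and a change in its RNA per cell cannot be told apart.

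NF-κB is a family of dimeric transcription factors that inhibitor proteins of the IκB family hold in the cytoplasm. Receptors for tumour necrosis factor (TNF) and interleukin-1 recruit adaptors and ubiquitin ligases that activate the IκB kinase, the inhibitor is degraded, and the freed dimers enter the nucleus and bind κB sites. Their targets include chemokines, adhesion molecules and also the inhibitors IκBα and TNFAIP3, so that the pathway switches itself off. PC3 cells are known for NF-κB activity that persists without added cytokine.

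The NFKBIA promoter is shown because this gene, which encodes IκBα, had the largest rise of the 45 genes, and capitals mark a match to the κB consensus. The sequence comes from the RefSeq promoter table on build GRCh38.p14, at chr14:35404700-35404999 on the minus strand, and covers 250 bases before the transcript start and 50 after it, written 5′ to 3′ on the strand of the gene.
NFKBIA: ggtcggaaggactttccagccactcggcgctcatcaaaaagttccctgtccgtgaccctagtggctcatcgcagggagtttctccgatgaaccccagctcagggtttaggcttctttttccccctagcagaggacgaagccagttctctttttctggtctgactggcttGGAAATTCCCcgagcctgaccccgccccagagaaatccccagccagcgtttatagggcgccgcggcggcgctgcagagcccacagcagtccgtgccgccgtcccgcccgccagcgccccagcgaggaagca

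Stretches around the matches of other listed genes are shown because they let the chemokines and the feedback genes be set beside each other. They come from the same table and build, and capitals mark the match to the κB consensus or to a 9-letter motif, GGAATTTCC, on either strand. The chemokine genes are given as CXCL1 at chr4:73869289-73869349 (plus), CXCL2 at chr4:74099238-74099298 (minus), CXCL3 at chr4:74038733-74038793 (minus), CXCL5 at chr4:73998733-73998793 (minus) and CXCL8 at chr4:73740453-73740512 (plus).
CXCL1: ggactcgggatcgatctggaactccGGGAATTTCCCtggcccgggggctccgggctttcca
CXCL2: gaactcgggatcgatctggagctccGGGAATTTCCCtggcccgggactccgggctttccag
CXCL3: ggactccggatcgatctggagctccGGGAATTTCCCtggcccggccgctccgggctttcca
CXCL5: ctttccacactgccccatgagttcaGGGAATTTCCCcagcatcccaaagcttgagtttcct
CXCL8: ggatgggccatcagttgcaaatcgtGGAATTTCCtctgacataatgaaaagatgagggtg

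The adhesion molecule ICAM1, the feedback genes TNFAIP3, BIRC3 and TNIP1 and the cytokine IL32 follow, at chr19:10270909-10270968 (plus), chr6:137867167-137867238 (plus), chr11:102317260-102317383 (plus), chr5:151081042-151081101 (minus) and chr16:3065279-3065339 (plus) in that order. TNFAIP3 and BIRC3 each carry a pair of separate matches, and in CXCL1, CXCL2, CXCL3, CXCL5 and IL32 the capitals cover a pair of overlapping matches.
ICAM1: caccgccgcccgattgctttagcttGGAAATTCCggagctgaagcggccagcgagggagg
TNFAIP3: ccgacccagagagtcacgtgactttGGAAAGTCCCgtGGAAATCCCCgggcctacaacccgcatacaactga
BIRC3: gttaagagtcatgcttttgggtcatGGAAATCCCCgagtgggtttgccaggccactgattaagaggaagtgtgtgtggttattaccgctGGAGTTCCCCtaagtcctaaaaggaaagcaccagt
TNIP1: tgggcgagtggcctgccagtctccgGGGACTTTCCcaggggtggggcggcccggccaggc
IL32: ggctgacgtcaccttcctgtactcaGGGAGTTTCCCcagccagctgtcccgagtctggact

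Promoter entries were found for 43 of the 54 listed genes, and 18 of these (41.9%) held the κB consensus within 250 bases before to 50 after a transcript start. Among all 27305 genes of the promoter table, 7.09% held it in at least 1 promoter, as did 5.91% of all 35116 promoters. The 9-letter motif, which lies inside some of the consensus matches, was found in 11 of 43 listed genes (25.6%) and in 0.560% of all genes. By direction, the consensus was present in 6 of 13 genes that rose (46.2%), 1 of 3 that fell and 8 of 19 that were not called (42.1%), and the 9-letter motif in 5, 0 and 5 of them. TNIP1, which fell, carries a match 42 bases before a start that lies inside the span of the gene (minus strand, 151029945 to 151093577), not before its outermost start. NFKBIA, which rose, carries its match 81 bases before its start. A match describes these letters in this window, and binding was not measured.

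Expression levels are given as TMM-normalised CPM, the counts scaled by edgeR's effective library size, and they are compared between groups and not between genes of different length. A gene was called when edgeR's quasi-likelihood test, adjusted by Benjamini-Hochberg over all 12703 genes, gave an adjusted p under 0.05 and its log2 fold change was at least 0.58 in size, the thresholds the study used. Of the 45 genes, 19 (42.2%) were called, against 19.3% of all genes, and 14 rose (31.1%), against 8.28%. The 5 that fell (11.1%) made up a share near that of all genes, 11.1%. By the adjusted p alone 28 of the 45 passed, 18 higher and 10 lower, against 57.6% of all genes. The 3 overexpressing lines did not overlap the 3 controls in 32 of the 45 (71.1%), against 62.5% of all genes, so that non-overlap was common throughout the table. The lowest level kept in the deposited table was 1.01 CPM in 3 libraries, here by library totals without TMM factors. Of the called genes, CXCL2, CXCL3 and IL32 reached it in every overexpressing line but not in every control, and TNFRSF11B only in controls. These 4 entered the table through the group where they were higher, so their calls are no support for the shares above. Among the 40 listed genes that reached that level in every library, a restriction added after the data were seen, 15 were called (37.5%), 11 higher and 4 lower, against 15.9% of the 11803 such genes in the table. The median log2 fold change was 0.13 over the 45 genes and 0.00 over all genes. This list and the further lists below were chosen with earlier results of these data known, so none of their shares is independent support.

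**Figure D1:**
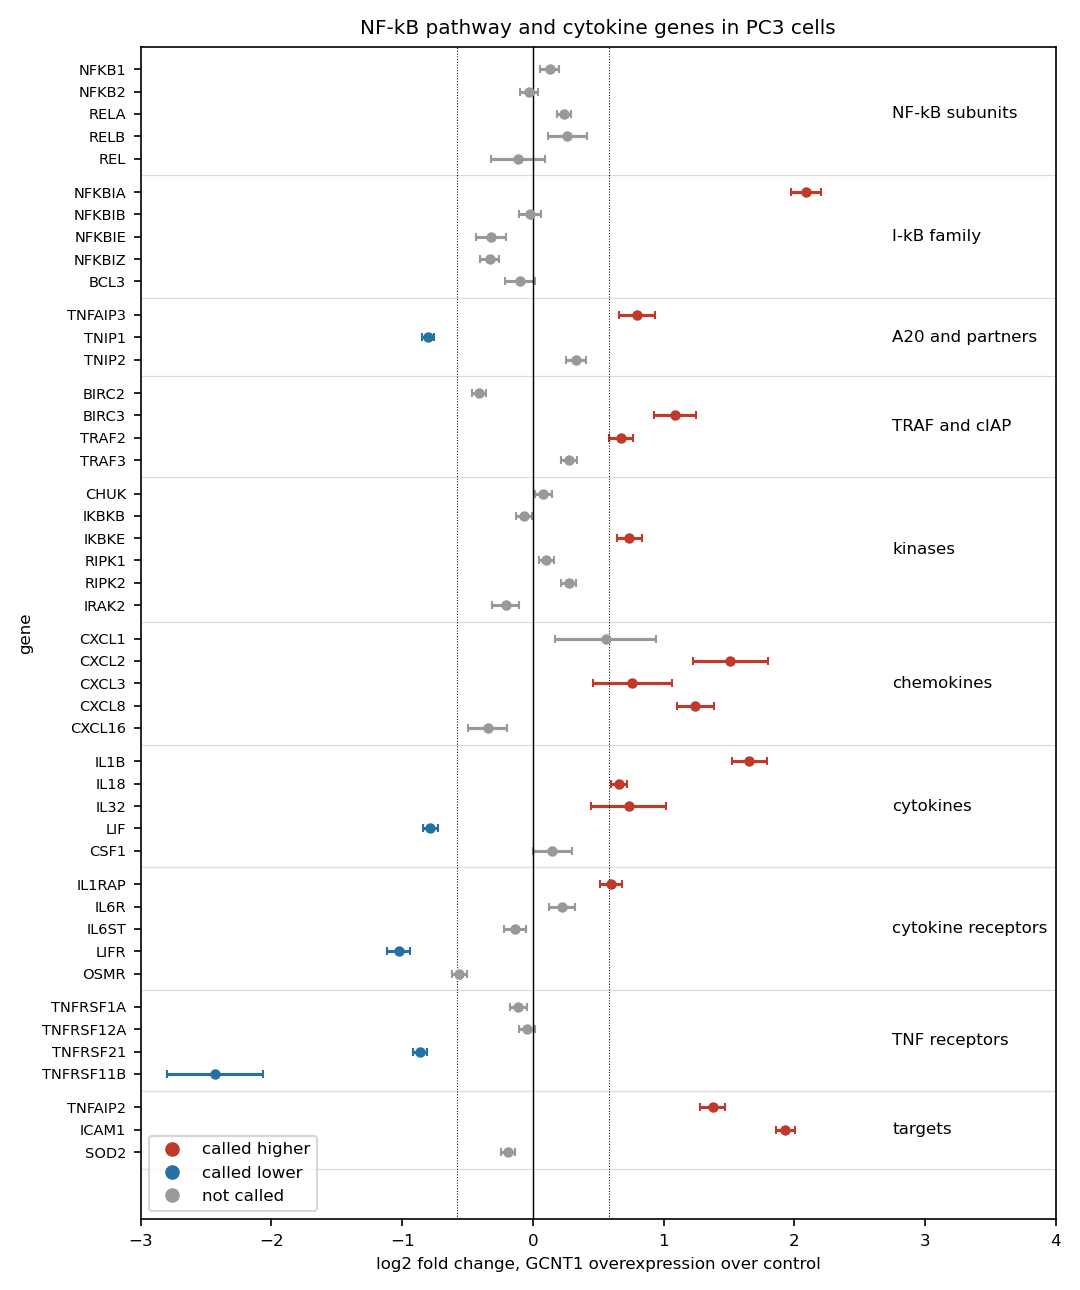
The log2 fold change (GCNT1 overexpression over control, x axis) of each of the 45 genes, grouped by role (y axis), with bars of 1 standard error and dotted lines at the fold threshold of 0.58. The 14 red genes rose and the 5 blue genes fell, and all 5 NF-κB subunits at the top lie between -0.11 and 0.26.

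None of the 5 genes that encode the DNA-binding subunits was called, where 19.3% of all genes were, and 5 genes are too few to tell the shares apart. RELA, the transactivating subunit of the classical dimer, stood at 146, 151 and 161 CPM in controls and 189, 173 and 179 in the overexpressing lines, a log2 fold change of 0.24 (SE 0.05, adjusted p = 0.00215) with no overlap but under the fold threshold. The values of its partner NFKB1, the precursor of p50, overlapped between the groups at 36.8 to 38.7 and 37.5 to 43.97 CPM (log2 fold change 0.13, adjusted p = 0.153). NFKB2 and RELB, the subunits of the alternative pathway, had log2 fold changes of -0.03 and 0.26, and REL, a further transactivating subunit, had -0.11, with overlapping groups in all 3. REL reads could be shared, since 50.3% of the 75-base windows of its longest transcript also occur in transcripts of other genes.

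Of the 5 IκB family genes among the 54, only NFKBIA was called, where 19.3% of all genes were. A share of 1 in 5 is close to this, and 5 genes are too few to tell the shares apart. NFKBIA (Entrez identifier 4792, chromosome 14 from 35401079 to 35404749) stood at 17.8, 19.0 and 21.3 CPM in controls and at 94.3, 86.3 and 67.8 CPM in the overexpressing lines. Every overexpressing line was above every control, and its mean rose from 19.4 ± 1.78 to 82.8 ± 13.6 CPM (SD, n = 3), a 4.26-fold increase (log2 fold change 2.09, SE 0.12, adjusted p = 7.52e-09). NFKBIZ, an atypical nuclear IκB protein, was lower in every overexpressing line (33.9 to 36.9 against 41.9 to 47.9 CPM) with a log2 fold change of -0.33 (SE 0.07, adjusted p = 0.00158), and NFKBIE, which encodes IκBε, had -0.32 (SE 0.11, adjusted p = 0.0296). Both were under the fold threshold. NFKBIB, which encodes IκBβ, and BCL3, a nuclear co-activator of the IκB family, had log2 fold changes of -0.02 and -0.10 with overlapping groups.

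TNFAIP3, the ubiquitin-editing enzyme that limits signalling from TNF receptors, rose, while TNIP1, an adaptor that binds it, fell. TNFAIP3 stood at 11.9, 9.24 and 9.30 CPM in controls and 18.8, 19.9 and 14.5 in the overexpressing lines, a 1.74-fold rise (log2 fold change 0.80, SE 0.14, adjusted p = 0.000235), which glmTreat did not call (adjusted p = 0.156). TNIP1 stood at 223, 236 and 238 CPM in controls and 136, 133 and 131 in the overexpressing lines. That was a 1.74-fold fall with narrow groups (log2 fold change -0.80, SE 0.05, adjusted p = 1.65e-08). The related TNIP2 was higher in every overexpressing line with a log2 fold change of 0.33 (adjusted p = 0.00198), under the fold threshold. WAKMAR2 overlaps TNFAIP3 and an unnamed gene overlaps TNIP1 on the opposite strand, and whether the counting used strand is not given in the sources used here.

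Among the ubiquitin ligases and adaptors of the TNF receptor complex, BIRC3 and TRAF2 rose. BIRC3, which encodes cIAP2 and is itself an NF-κB target, stood at 9.38, 7.15 and 8.88 CPM in controls and 17.0, 22.4 and 14.4 in the overexpressing lines (2.12-fold, log2 fold change 1.08, SE 0.16, adjusted p = 7.56e-05). Its neighbour and paralog BIRC2, which encodes cIAP1, was lower in every overexpressing line, at 64.6 to 70.1 against 87.9 to 90.8 CPM, a log2 fold change of -0.41 (SE 0.05, adjusted p = 2.99e-05) that was under the fold threshold. TRAF2, the adaptor that brings the cIAP ligases to the receptor, stood at 17.1, 20.8 and 18.3 CPM in controls and 33.1, 29.0 and 27.7 in the overexpressing lines (log2 fold change 0.67, SE 0.09, adjusted p = 4.68e-05). The 50 genes nearest to TRAF2 had a median of 0.61, which leaves 0.06, and glmTreat, which tests against the fold threshold itself, did not call it (adjusted p = 0.401). The log2 fold change of TRAF3, which restrains the alternative pathway, was 0.28 (adjusted p = 0.0018).

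Of 6 kinases 1 was called (16.7%, against 19.3% of all genes), IKBKE. It encodes IKKε, an IκB kinase relative best known from antiviral signalling, and stood at 9.30, 10.1 and 9.05 CPM in controls and 15.7, 15.5 and 16.3 in the overexpressing lines. The groups were well apart, and the rise was 1.67-fold (log2 fold change 0.74, SE 0.09, adjusted p = 1.82e-05). It was not called by glmTreat (adjusted p = 0.128). The antisense gene IKBKE-AS1 overlaps it. The catalytic subunits of the IκB kinase, CHUK and IKBKB, had log2 fold changes of 0.08 and -0.07 (SE 0.06 for both) and did not pass the adjusted p (0.306 and 0.367). RIPK1 and RIPK2, kinases downstream of TNF and NOD receptors, had log2 fold changes of 0.10 and 0.28, of which RIPK2 passed the adjusted p alone (0.00103). IRAK2, a kinase of interleukin-1 signalling, had -0.21 (adjusted p = 0.0999).

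Outside the core, 43 further signalling genes such as the ubiquitin ligase and TAK1 complexes formed a second list, of which 41 had a row. Of these, 3 were called (7.32%, against 19.3% of all genes), with a median log2 fold change of 0.19. All 41 were at the lowest level kept in the table in every library, and 15.9% of all such genes were called. By the adjusted p alone 30 of the 41 passed, against 57.6% of all genes. The groups did not overlap in 33 of the 41, against 62.5% of all genes, so changes under the fold threshold were common in this list. NFKBID, another nuclear IκB protein, rose from 1.63 ± 0.382 to 2.90 ± 0.525 CPM (SD, n = 3; log2 fold change 0.84, SE 0.23, adjusted p = 0.00773). OTULIN, a deubiquitinase of linear chains, fell by 0.86 on the log2 scale (SE 0.07, adjusted p = 2.97e-07), the same as the median of its 50 nearest analysed genes, -0.86. PELI1, a ligase that acts on IRAK proteins, fell by 0.64 (SE 0.15, adjusted p = 0.00256), and was under the fold threshold without control 2 (-0.54) or without overexpressing line 1 (-0.55). The 50 genes nearest to PELI1 had a median of -0.49, which leaves -0.15, and glmTreat called neither PELI1 nor NFKBID (adjusted p = 0.838 and 0.349).

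Of the 8 listed chemokine genes 5 had a row, and CXCL2, CXCL3 and CXCL8 rose. All 3 encode attractants of neutrophils that act on CXCR2, and they lie with CXCL1 in a cluster on chromosome 4. CXCL8 (from 73740519 to 73743716), which encodes interleukin-8, stood at 4.21, 3.61 and 3.13 CPM in controls and 8.55, 9.10 and 8.36 in the overexpressing lines, a 2.37-fold rise (log2 fold change 1.24, SE 0.14, adjusted p = 6.64e-06). CXCL2 had 9, 15 and 9 reads in controls against 36, 38 and 27 in the overexpressing lines. Its 2.85-fold rise (log2 fold change 1.51, SE 0.29, adjusted p = 0.00055) thus rests on few reads, although the groups did not overlap.

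CXCL3 had 12, 6 and 10 reads in controls against 15, 17 and 19 in the overexpressing lines. Its log2 fold change of 0.76 (SE 0.30) passed narrowly (adjusted p = 0.0447), and the call was lost in 5 of the 6 fits that left out a line, all but that without control 1, with 0.52 as the lowest value, without control 2. CXCL1 had 16, 11 and 15 reads in controls against 29, 27 and 10 in the overexpressing lines, so that the third overexpressing line lay below the controls, and it was not called (log2 fold change 0.56, SE 0.39, adjusted p = 0.235). Without overexpressing line 3 CXCL1 was called higher. The 3 genes carry the same 11-letter stretch in the sequences above, and they share 0.273%, 2.50% and 2.30% of the 75-base windows of CXCL1, CXCL2 and CXCL3 with each other. The log2 fold change of CXCL16, a membrane-bound chemokine, was -0.35 (SE 0.15, adjusted p = 0.0584).

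**Figure D2:**
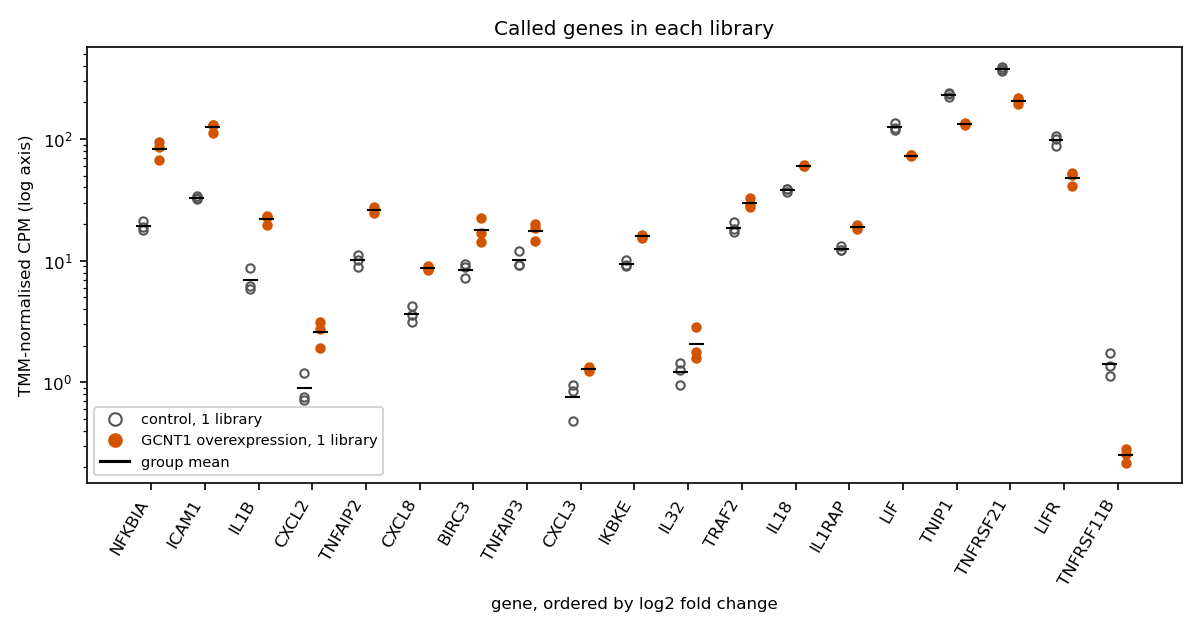
The TMM-normalised CPM of the 19 called genes (log y axis) in each library, ordered along the x axis by log2 fold change, with open circles for controls, filled circles for GCNT1 overexpression and a line at each group mean. In all 19 genes the 3 libraries of the groups do not overlap, with TNFRSF11B, CXCL2, CXCL3 and IL32 lowest on the axis.

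IL1B had the largest rise among the cytokines. It encodes interleukin-1β, both a product and an activator of the pathway, and stood at 5.88, 8.67 and 6.26 CPM in controls and 22.7, 23.5 and 19.5 in the overexpressing lines. Its mean rose from 6.94 ± 1.52 to 21.9 ± 2.13 CPM (SD, n = 3), a 3.15-fold increase (log2 fold change 1.65, SE 0.13, adjusted p = 3.01e-07). IL18, a relative of interleukin-1, rose from 36.9, 39.0 and 38.9 CPM to 61.7, 59.7 and 60.03 CPM (1.58-fold, log2 fold change 0.66, SE 0.06, adjusted p = 8.21e-07), with no call by glmTreat (adjusted p = 0.230). IL32, a cytokine that rodents lack, had 12, 18 and 15 reads in controls against 33, 22 and 25 in the overexpressing lines (log2 fold change 0.73, SE 0.29, adjusted p = 0.0421). The IL32 call was lost without control 1, 2 or 3 and without overexpressing line 1, with log2 fold changes from 0.46 to 0.89 over the 6 fits, and glmTreat called neither IL32 nor CXCL3 (adjusted p = 0.748 and 0.701). CSF1, the macrophage growth factor, had a log2 fold change of 0.15 with overlapping groups.

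LIF, a cytokine of the interleukin-6 family, and LIFR, its receptor, both fell. LIF stood at 119, 124 and 135 CPM in controls and 73.6, 73.9 and 71.9 in the overexpressing lines (1.72-fold lower, log2 fold change -0.79, SE 0.06, adjusted p = 1.41e-07). LIFR stood at 105, 99.8 and 87.6 CPM in controls and 40.8, 50.4 and 52.2 in the overexpressing lines (2.04-fold lower, log2 fold change -1.03, SE 0.09, adjusted p = 6.73e-07). OSMR, the oncostatin M receptor and a near neighbour of LIFR on chromosome 5, was lower in every overexpressing line at 75.1 to 80.9 against 113 to 119 CPM. Its log2 fold change of -0.56 (SE 0.05, adjusted p = 1.61e-06) was just under the fold threshold, and it was called without control 3 or without overexpressing line 3. The shared signalling chain IL6ST had -0.14 and IL6R had 0.22, with overlapping groups in both. LIF-AS1, LIF-AS2, LIFR-AS1 and, for OSMR, RICTOR overlap these genes on the opposite strand.

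Among the receptor chains of interleukin-1 and interleukin-18, whose cytokine genes rose, 1 rose and 2 fell. IL1RAP, the co-receptor chain of interleukin-1, rose from 12.2, 13.3 and 12.2 CPM to 18.2, 19.5 and 19.3 CPM (1.51-fold, log2 fold change 0.60, SE 0.09, adjusted p = 5.8e-05), and was at 0.58, just under the fold threshold, without control 3 and not called by glmTreat (adjusted p = 1.0). IL1R1, the chain that binds interleukin-1 and a gene of the second ligand and receptor list, had 136, 125 and 87 reads in controls against 16, 30 and 26 in the overexpressing lines, a 5.14-fold fall (log2 fold change -2.36, SE 0.20, adjusted p = 5.15e-07). IL18R1, the chain that binds interleukin-18, had 141, 123 and 104 reads in controls against 7, 12 and 13 in the overexpressing lines. It fell 12.2-fold (log2 fold change -3.60, SE 0.20, adjusted p = 7.25e-09). IL1R1 and IL18R1 both lie on chromosome 2, where the medians of their 50 nearest analysed genes were -0.09 and -0.07. A median over 50 genes cannot show a shift confined to a few of them, and such a shift was not tested. The called changes had opposite signs for IL1B with IL1R1 and for IL18 with IL18R1, and the same sign for LIF with LIFR. IL18R1 reached the lowest level kept in the table only in controls, so only a fall could be called for it. IL18BP, a secreted decoy for interleukin-18 that was singled out after its values were seen, was higher in every overexpressing line, with a log2 fold change of 0.53 (adjusted p = 0.00144) under the fold threshold.

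**Figure D3:**
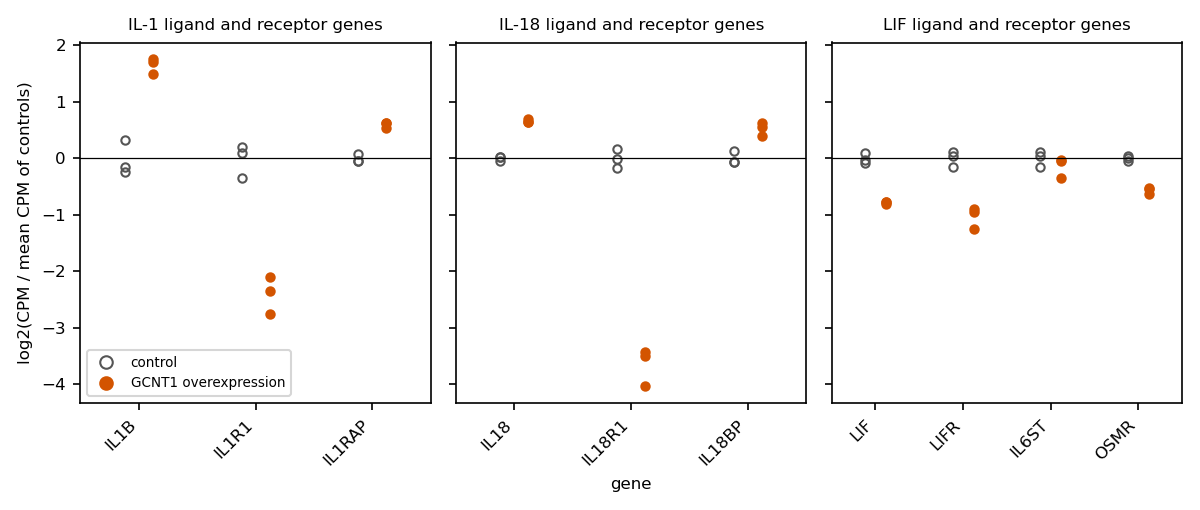
The log2 ratio of each library's CPM to the control mean (y axis) for genes of the IL-1, IL-18 and LIF systems (x axis), with open circles for the 3 controls and filled circles for the 3 GCNT1 overexpressing lines. IL1B, IL18 and IL1RAP lie above 0, IL1R1 and IL18R1 lie lowest, and LIF and LIFR lie below 0 together.

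In the TNF receptor family TNFRSF21 and TNFRSF11B fell. TNFRSF21, the death-domain receptor DR6, stood at 393, 361 and 373 CPM in controls and 193, 218 and 208 in the overexpressing lines (1.82-fold lower, log2 fold change -0.86, SE 0.05, adjusted p = 2.34e-08). TNFRSF11B, which encodes osteoprotegerin, the secreted decoy of the bone-resorption factor RANKL, had 22, 14 and 16 reads in controls against 3, 3 and 4 in the overexpressing lines. The latter lie at or next to 3 counts, the floor used here, which is 0.213 to 0.259 CPM at these depths. From the summed 52 and 10 counts the ratio was 5.56 (exact 95% interval 2.80 to 12.3, for counting error only), and edgeR's log2 fold change was -2.43 (SE 0.37, adjusted p = 9.17e-05). TNFRSF1A, the main receptor of TNF, and TNFRSF12A, the receptor of TWEAK, had log2 fold changes of -0.11 and -0.04 with overlapping groups.

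Of 52 further cytokine, chemokine and receptor genes 33 had a row, and 15 were called (45.5%, against 19.3% of all genes), 8 higher and 7 lower, with a median log2 fold change of 0.17. TNFRSF9 and IL18R1 were at the lowest level kept in the table, in every library, only in the group where they were higher, so their calls give the share no support, and among the 30 genes at that level in all 6 libraries 13 (43.3%) were called, against 15.9%. The largest rises were those of TNFRSF9, a co-stimulatory receptor and NF-κB target (log2 fold change 1.82, SE 0.33, adjusted p = 0.000381), of CCL26, a chemokine for eosinophils (1.65, SE 0.18, adjusted p = 6.6e-06), and of IL15RA, the receptor chain that presents interleukin-15 (1.54, SE 0.17, adjusted p = 6.04e-06). The 50 nearest analysed genes of IL15RA had a median of 0.74. TNFRSF9 was at low counts, 13, 6 and 6 in controls and 29, 41 and 25 in the overexpressing lines. After IL18R1 and IL1R1 the largest fall was that of IL17RD, a receptor that also dampens growth factor signalling, from 32.3 ± 0.190 to 16.1 ± 1.35 CPM (SD, n = 3; log2 fold change -0.998, SE 0.08, adjusted p = 2.73e-07).

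Among the standard targets ICAM1 and TNFAIP2 rose. ICAM1 (chromosome 19 from 10271093 to 10286615) encodes an adhesion molecule that binds leukocyte integrins, and stood at 32.1, 32.5 and 33.8 CPM in controls and 131, 132 and 112 in the overexpressing lines. Its 3.81-fold rise (log2 fold change 1.93, SE 0.07) had the smallest adjusted p of the 45 genes, 1.75e-10. ICAM4-AS1 and LIMASI overlap it on the opposite strand, and BIRC3, IL18, IL32 and TNFAIP2 likewise have an overlapping gene there. TNFAIP2, a TNF-induced protein that promotes membrane protrusions, stood at 11.1, 8.91 and 10.2 CPM in controls and 27.5, 26.6 and 24.6 in the overexpressing lines (2.59-fold, log2 fold change 1.38, SE 0.10, adjusted p = 7.89e-08). SOD2, the mitochondrial superoxide dismutase and a classical NF-κB target, did not rise. It stood at 101 to 108 CPM in controls and 89.3 to 97.4 in the overexpressing lines, a log2 fold change of -0.19 (SE 0.06, adjusted p = 0.0104).

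Of 37 further known targets 23 had a row and 6 were called (26.1%, against 19.3%), 4 higher and 2 lower, with a median log2 fold change of 0.25. NUAK2, a stress-activated kinase, had 11, 15 and 9 reads in controls against 53, 47 and 44 in the overexpressing lines (log2 fold change 1.94, SE 0.25, adjusted p = 2.52e-05). PLAU, the urokinase protease, rose from 430 ± 13.9 to 921 ± 78.7 CPM (SD, n = 3; log2 fold change 1.10, SE 0.06, adjusted p = 4.79e-09). IRF1, an interferon regulatory factor, rose from 11.6 ± 0.950 to 22.1 ± 2.60 CPM (SD, n = 3; log2 fold change 0.92, SE 0.11, adjusted p = 8.74e-06). The 2 that fell were BTG2, an anti-proliferative gene (log2 fold change -1.27, SE 0.23, adjusted p = 0.000428), and SGK1, a serum-induced kinase (-0.73, SE 0.10, adjusted p = 2.63e-05). The 50 genes nearest to SGK1 had a median of -0.41, which leaves -0.31, and glmTreat did not call it (adjusted p = 0.170). NUAK2 and BTG2 were at the lowest level kept in the table, in every library, only in the group where they were higher, so their calls give the share no support. Among the 20 genes of this list at that level in all 6 libraries, 4 (20%) were called, against 15.9% of all such genes.

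Each log2 fold change was also set beside the chromosomal neighbourhood of the gene, taken as the median log2 fold change of the 50 nearest analysed genes. Of the 19 called genes, 8 lay where this median was over 0.2 in size, with the sign of the gene in 5 and the opposite sign in 3. Besides TRAF2, described above, IKBKE had 0.74 beside 0.31, leaving 0.43. LIFR had -1.03 beside -0.65, leaving -0.38, and OSMR, not called, had -0.56 beside -0.67. LIF kept -0.54, while IL1RAP, whose neighbours had a median of 0.07, kept 0.52. TNFAIP3, BIRC3 and IL18 rose where their neighbours had medians of -0.44, -0.34 and -0.23. Relative to the neighbours 14 of the 19 were still at 0.58 or more in size and 5 (TRAF2, IKBKE, LIFR, LIF and IL1RAP) were under it. No test was run against the local median, and its part in these 5 genes was not tested.

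**Figure D4:**
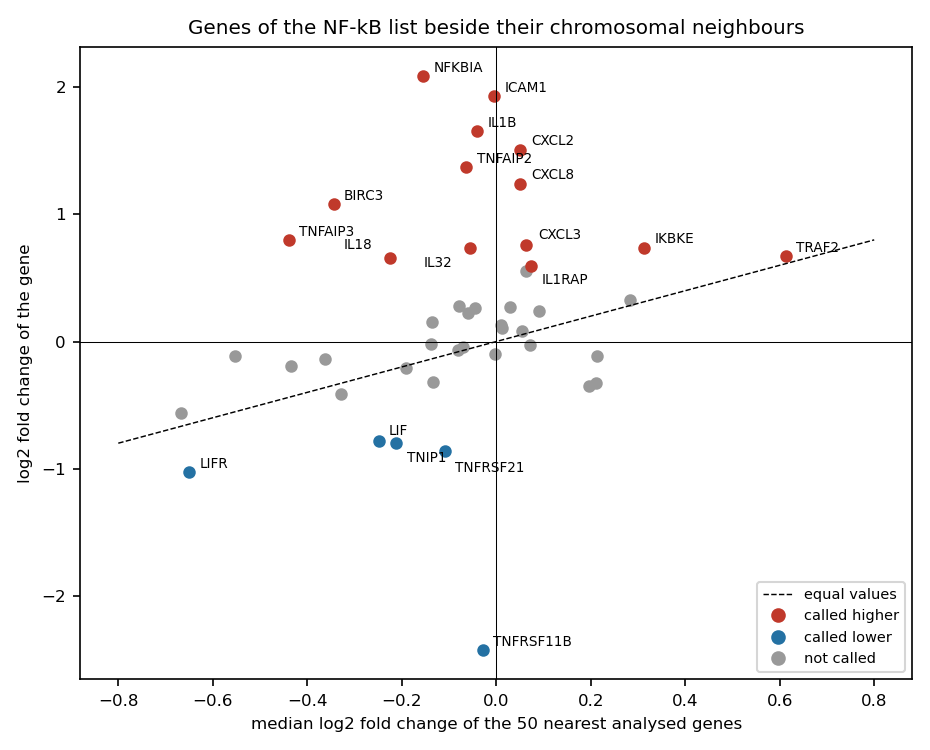
The log2 fold change of each of the 45 genes (y axis) against the median log2 fold change of its 50 nearest analysed genes (x axis), with a dashed line at equal values. NFKBIA, ICAM1, IL1B and TNFRSF11B lie far from the line, and TRAF2 lies next to it.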

How the data were processed

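RNA from 3 control and 3 GCNT1 overexpressing PC3 lines gave 1 stranded mRNA library each. The authors used Cutadapt for trimming, HISAT2 for mapping to hg38 and featureCounts for counting the single reads, and they deposited raw counts per gene by Entrez identifier, unnormalised and unpooled. The annotation, the strand setting and the filter are not given in the sources used here. The third-highest library of a gene was never under 1.01 CPM by library totals without TMM factors. Libraries of a group differed by more than sampling noise (chi-square per degree of freedom 1.65 to 5.61).

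Counts were compared with edgeR 4.0.16 (R 4.3.3): filterByExpr, which kept all 12703 genes, TMM factors, a 2-group quasi-likelihood fit and Benjamini-Hochberg adjustment. The common biological coefficient of variation was 0.0515. The alternatives were limma-voom (limma 3.58.1), DESeq2 1.42.0, glmTreat, RLE factors, library size alone, no filter, at least 10 counts in every library, the replicate block and each library left out. Positions and overlaps are from GENCODE 44, and promoters from RefSeq. The named genes were all 45 listed genes with a row and, of each further list, the 3 called genes with the largest log2 fold change in each direction. The genes and lists were chosen with earlier results of these data known. The depth floor of 3 counts covers counting error only. The result of 1 marker list is not reported here.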

Additional observations from a re-analysis of the deposited data

How the results depend on the processing

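The 14 alternatives kept the sign of all 19 called genes, and 12 of these genes passed both thresholds in every alternative that could be fitted. The setting without a filter repeated the main fit, since all 12703 genes were kept there too, and glmTreat returns the main log2 fold changes. Neither of these alternatives could change a sign. A single test against the fold threshold (glmTreat) called 7 listed genes higher, without CXCL3, IKBKE, IL18, IL1RAP, IL32, TNFAIP3 and TRAF2, and called 1392 genes in all in place of 2457. Under it 1 gene of the signalling list was called, and 5 with library size alone, which moved the median of all genes by 0.0577. DESeq2 did not call CXCL3 (adjusted p = 0.188, from 0.0322 to 0.701 over the alternatives) or IL32 (0.108, from 0.0239 to 0.748). The filter of 10 counts in every library leaves out CXCL2, CXCL3 and TNFRSF11B by construction. Among genes at the lowest level kept in the table in every library, chosen after seeing the data, 11 listed genes were called higher and 4 lower, and 1878 genes in all, with 3, 13 and 4 in the signalling, ligand and receptor, and target lists. With each library left out, 11 to 14 listed genes were called higher and 5 to 6 lower, and the counts ran from 2409 to 2511 for all genes, 15 to 18 for the ligand and receptor list and 6 to 7 for the target list, with 3 throughout for the signalling list. Relative to its 50 nearest genes OTULIN had 0.0071 in place of -0.86.

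In the fit with a replicate block, 12 listed genes were called higher, without CXCL3 (adjusted p = 0.0662) and IL32 (0.0637), and 5 lower. Libraries that share a number gave no sign of pairing: with the group mean removed, they correlated at -0.316, 0.0109 and -0.136 across genes. The mean for different numbers, 0.0741, is not a separate comparison. Removing the group mean makes the libraries of a group cancel out, which ties this mean to the same-numbered values. Whether the numbers pair the samples is therefore not settled. Depth limits the genes with the fewest counts (CXCL1, CXCL2, CXCL3, IL32, TNFRSF11B) most.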

Other observations

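Several further genes of the ligand and receptor list, chosen here after their values were seen, belong to systems named above. IL15 had 18, 20 and 17 reads in controls against 33, 47 and 32 in the GCNT1 overexpressing lines (log2 fold change 0.93, SE 0.23, adjusted p = 0.00337), so that both this cytokine and its receptor chain IL15RA were higher. The death receptor genes FAS and TNFRSF10A were higher in every overexpressing line, with log2 fold changes of 1.05 (SE 0.13, adjusted p = 1.45e-05) and 0.76 (SE 0.09, adjusted p = 1.46e-05). CD40, a receptor that feeds the alternative NF-κB pathway, was lower, from 11.2 ± 0.762 to 6.28 ± 0.508 CPM (SD, n = 3; log2 fold change -0.83, SE 0.11, adjusted p = 4.16e-05). CXCL6, a chemokine of the cluster that holds CXCL8, had 94, 87 and 88 reads in controls against 52, 56 and 54 in the overexpressing lines (log2 fold change -0.83, SE 0.13, adjusted p = 0.000137), opposite in sign to CXCL2, CXCL3 and CXCL8. IL7R, the receptor chain of interleukin-7, rose from 36.0 ± 1.32 to 82.0 ± 7.11 CPM (SD, n = 3; log2 fold change 1.19, SE 0.07, adjusted p = 1.73e-08), where its 50 nearest analysed genes had a median of -0.71.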
